A study of Mus musculus with 6 samples.

Results

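The 9 genes described here code for regulators that act between a cell's nucleus and its mitochondria: the coactivators Ppargc1a and Ppargc1b, the nuclear transcription factors Esrra, Nrf1 and Gabpa, and the mitochondrial DNA (mtDNA) transcription proteins Tfam, Tfb1m, Tfb2m and Polrmt. They were taken by name from a table of 45706 genes, and all 9 were present and passed the filter on low counts, as did 11440 genes in all. RNA was sequenced from 3T3-L1 cells, a mouse embryonic fibroblast line that turns into adipocytes, on day 7 after induction with IBMX, dexamethasone, insulin and rosiglitazone. A group of 3 samples carried a lentiviral scrambled control shRNA and a group of 3 carried an Rbms1 shRNA (RBMS1 knockdown). Both lines were puromycin-selected and given the same cocktail, and Rbms1 codes for an RNA-binding protein. The study's methods call the 3 samples of a group biological replicates, and no source used here says that they came from separate transductions.

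Mitochondria are built from proteins of both genomes. PGC-1alpha and PGC-1beta, the products of Ppargc1a and Ppargc1b, bind no DNA sequence themselves and raise transcription through factors such as NRF-1, GABP and the estrogen-related receptor ERRalpha, whose targets include respiratory chain subunits and the proteins that transcribe mtDNA. Inside the organelle the RNA polymerase POLRMT, with TFAM and TFB2M, starts transcription of the 13 mtDNA-encoded mRNAs, and PGC-1alpha is known in adipose tissue for its part in brown and beige fat.

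The library totals ranged from 3142695 to 11073098 estimated counts, and genes derived from ribosomal RNA took 43.0% of scrambled control replicate 2 and 8.12% to 17.8% of the others. That library was also the shallowest, so that 1 count in it equalled 0.495 CPM (counts scaled to 1000000 counts of a library) and 3 counts, the upper limit that a count of 0 allows, equalled 1.49 CPM. The CPM used throughout were scaled by TMM factors of 0.643 to 1.23. Rbms1, the targeted gene, stood at 113, 101 and 99.4 CPM in the control samples and at 49.0, 61.2 and 83.8 CPM in the knockdown samples. The groups did not overlap, but the log2 fold change of -0.69 ± 0.20 (SE) did not pass the threshold (adjusted p = 0.185, edgeR quasi-likelihood test with Benjamini-Hochberg adjustment; 0.108 by DESeq2). Of the adipocyte markers fixed for this work all 10 were measured, Adipoq, Fabp4 and Plin1 among them, while Ucp1, the uncoupling protein that defines brown fat, had 0 counts in every sample. Among the 10 fibroblast markers Col1a1, Col3a1 and Fn1 were at 873 CPM or more in all 6 samples, while Cd34 was near 0. The cells at harvest thus carried transcripts of both kinds.

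RBMS1 knockdown left most of the 9 regulators within the spread between samples, and the exception in size was Ppargc1a, which was 2.13-fold lower. A gene was called at an adjusted p of 0.1 or less. By that threshold edgeR called none of the 9 regulators, against 1.22% of all tested genes. At an unadjusted p under 0.05 it took 1 of the 9, Ppargc1a, against 12.4% of all tested genes. DESeq2 called 1 of the 9, again Ppargc1a, against 3.20% of the genes it gave an adjusted p. The median log2 fold change of the 9 was -0.096, beside 0.0044 for all tested genes, and 6 of the 9 values were below 0, beside 49.6% of all tested genes. The 3 knockdown samples lay wholly on one side of the 3 controls for 2 of the 9 genes and for 18.5% of all tested genes.

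**Figure D1:**
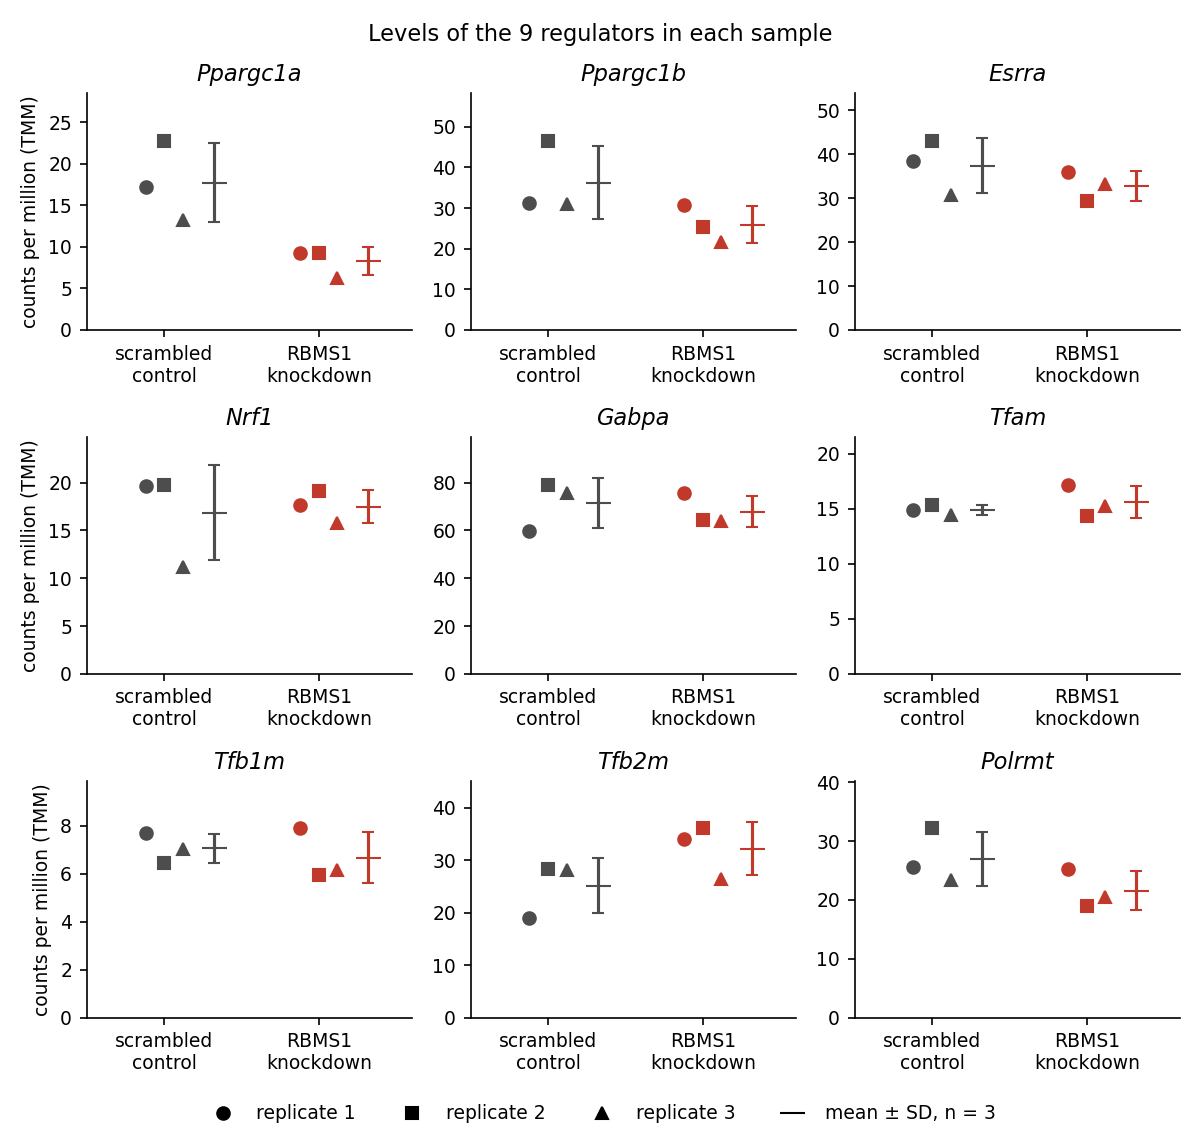
Each panel shows 1 regulator in CPM (vertical axis, starting at 0) for the 3 scrambled control and the 3 RBMS1 knockdown samples, with the mean and SD beside the points and a marker shape for each replicate number. The groups were apart for Ppargc1a and Ppargc1b and overlapped for the other 7 genes.

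Ppargc1a (ENSMUSG00000029167, GRCm38 chr5:51454250-51567726, minus strand), which codes for PGC-1alpha, had 108, 46 and 77 counts in the control samples and 65, 79 and 86 in the knockdown samples. In CPM these were 17.3, 22.8 and 13.2 against 9.32, 9.21 and 6.30. Every knockdown sample was below every control, and the means were 17.8 ± 4.797 and 8.28 ± 1.71 (SD, n = 3 each). The log2 fold change was -1.09 ± 0.27 (SE, 95% interval -1.71 to -0.47), which ranked 247th of the 11440 tested genes by p. Ppargc1a missed the threshold with edgeR (adjusted p = 0.140) and passed it with DESeq2 (adjusted p = 0.0596). Over the 19 ways of fitting the counts its log2 fold change stayed between -1.27 and -0.69 and its adjusted p between 0.0596 and 0.410. It passed in 2 of them, DESeq2 and edgeR without RBMS1 knockdown replicate 1 (adjusted p = 0.0773), a fit that called 5.94% of all tested genes. Without scrambled control replicate 2, its highest sample and the shallowest library, the log2 fold change was -0.89 (edgeR, adjusted p = 0.410).

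Ppargc1b (ENSMUSG00000033871, chr18:61298136-61400431, minus strand), which codes for PGC-1beta, was measured at 31.2, 46.5 and 30.9 CPM in the control samples and at 30.8, 25.3 and 21.7 CPM in the knockdown samples. The groups were apart by a margin of 0.0629 CPM, between control replicate 3 and knockdown replicate 1. Its log2 fold change of -0.47 ± 0.22 (SE, 95% interval -0.97 to 0.022) was not called (edgeR, adjusted p = 0.422, 0.202 to 0.919 over the 19 fits). It was -0.26 without scrambled control replicate 2, its highest sample, and -0.054 with library sizes alone, where all genes shift by 0.37. Both genes that were apart were lower in the knockdown samples, as were 9.55% of all tested genes, and none of the 9 regulators lay wholly above the controls, as 8.96% of all tested genes did.

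Ratios of counts within a library do not depend on its scaling, and 4 were computed, chosen with the levels known and given no test. For every 100 counts of Ppargc1b there were 55.4, 48.9 and 42.8 counts of Ppargc1a in the control samples and 30.2, 36.4 and 29.1 in the knockdown samples. For every 100 counts of Esrra there were 44.8, 52.9 and 43.0 in the control samples and 25.9, 31.5 and 18.9 in the knockdown samples. In both ratios the groups were apart, which restates the difference in Ppargc1a without the library scaling. Ppargc1a made up 7.39% (95% Wilson interval 6.16 to 8.85), 7.76% (5.87 to 10.2) and 5.64% (4.53 to 6.99) of the counts of the 9 genes in the control samples. In the knockdown samples it made up 3.67% (2.89 to 4.66), 4.14% (3.33 to 5.13) and 3.01% (2.44 to 3.70). The intervals cover counting error only, and that of control replicate 3 overlapped those of knockdown replicates 1 and 2.

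The sequence before the Ppargc1a start is shown because it is the regulator with the largest fold change. Its promoter held no exact full-length match to the 4 motifs searched, and partial matches were not sought. The 150 bases just upstream of the RefSeq start (GRCm38.p6 chr5:51567726-51567875, minus strand, 5′ to 3′, no letter capitalised) read:
Ppargc1a: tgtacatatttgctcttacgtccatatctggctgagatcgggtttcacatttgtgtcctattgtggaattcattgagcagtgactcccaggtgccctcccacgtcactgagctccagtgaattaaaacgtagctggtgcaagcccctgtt

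The 3 nuclear transcription factors did not differ beyond the spread between samples. Esrra (ENSMUSG00000024955, chr19:6910977-6921813, minus strand), the gene of ERRalpha, a nuclear receptor that PGC-1alpha and PGC-1beta bind, was measured at 38.5, 43.1 and 30.7 CPM in the control samples and at 36.0, 29.3 and 33.3 CPM in the knockdown samples. Its log2 fold change was -0.18 ± 0.18 (SE, 95% interval -0.59 to 0.23), and -0.31 to -0.079 with 1 sample left out. The highest sample and the lowest lay in different groups while the rest were mixed. With library sizes alone, without TMM factors, the log2 fold change of all tested genes shifted to a median of 0.37 and that of Esrra to 0.22. Its 3′ end shares 73 bp with Trmt112 on the opposite strand.

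Nrf1 (ENSMUSG00000058440, chr6:30047988-30153458, plus strand), the gene of nuclear respiratory factor 1, which activates respiratory chain genes, was at 19.7, 19.8 and 11.2 CPM in the control samples and at 17.6, 19.1 and 15.7 CPM in the knockdown samples. All 3 knockdown samples fell inside the range of the controls, which scrambled control replicate 3 set at its low end. The log2 fold change was 0.061 ± 0.25 (SE, 95% interval -0.50 to 0.63), and it was -0.17 without that library and -0.11 with the median of each chromosome removed, where the median over chromosome 6 was 0.19.

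Gabpa (ENSMUSG00000008976, chr16:84834925-84863779, plus strand), which codes for the DNA-binding subunit of GABP, also called NRF-2, was the regulator with the highest counts, at 59.8, 79.2 and 75.5 CPM in the control samples and 75.6, 64.2 and 64.0 CPM in the knockdown samples. The samples of both groups were interleaved, with a log2 fold change of -0.072 ± 0.16 (SE, 95% interval -0.44 to 0.30), 0.0030 without scrambled control replicate 2, and 0.33 with library sizes alone, where all genes shift by 0.37. Gabpa begins next to Atp5j on the opposite strand, and their annotated spans share 701 bp.

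Of the mtDNA transcription proteins, Tfam had nearly the same level in every library. Tfam (ENSMUSG00000003923, chr10:71225464-71238280, minus strand), which codes for the protein that packages mtDNA and bends its promoters, was at 14.9, 15.3 and 14.4 CPM in the control samples and at 17.2, 14.3 and 15.3 CPM in the knockdown samples. All 6 values lay within 2.86 CPM of each other, and the log2 fold change was 0.071 ± 0.19 (SE, 95% interval -0.36 to 0.50). The interval leaves room for changes of up to 1.42-fold upwards and 1.28-fold downwards.

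Polrmt (ENSMUSG00000020329, chr10:79736123-79746581, minus strand), the gene of the mitochondrial RNA polymerase, was at 25.6, 32.2 and 23.3 CPM in the control samples and at 25.2, 19.01 and 20.6 CPM in the knockdown samples. Knockdown replicate 1 lay between the controls and the other two knockdown samples were below all controls. The log2 fold change was -0.32 ± 0.20 (SE, 95% interval -0.77 to 0.13), and 0.088 with library sizes alone. For every 100 counts of Polrmt there were 58.1, 47.7 and 61.8 counts of Tfam in the control samples and 68.2, 75.5 and 74.4 in the knockdown samples, so this ratio was higher in all 3 knockdown samples. The ratio was given no test.

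Tfb2m (ENSMUSG00000026492, chr1:179528055-179546267, minus strand), which codes for the factor that opens mtDNA promoters together with POLRMT, was at 19.03, 28.2 and 28.1 CPM in the control samples and at 34.0, 36.0 and 26.4 CPM in the knockdown samples. The groups overlapped through knockdown replicate 3, and the log2 fold change of 0.36 ± 0.21 (SE, 95% interval -0.12 to 0.84) was not called (edgeR, adjusted p = 0.536). The median over the 675 tested genes of chromosome 1 was 0.25, and with chromosome medians removed that of Tfb2m was 0.12. Its deposited counts differed from whole numbers by more than 0.01 in all 6 samples, which those of the other 8 genes did not, and where its reads map was not tested.

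Tfb1m (ENSMUSG00000036983, chr17:3519256-3557781, minus strand), a relative of Tfb2m whose product methylates the small mitochondrial ribosomal RNA, was the regulator with the fewest counts, 292 over all samples. It was at 7.67, 6.44 and 7.04 CPM in the control samples and at 7.89, 5.95 and 6.15 CPM in the knockdown samples. The highest and the lowest sample were both knockdown samples, and the log2 fold change was -0.096 ± 0.27 (SE, 95% interval -0.70 to 0.50). It was 0.25 with library sizes alone and -0.22 to -0.0067 with 1 sample left out. For every 100 counts of Tfb2m there were 40.3, 22.8 and 25 counts of Tfb1m in the control samples and 23.2, 16.5 and 23.3 in the knockdown samples, and the groups overlapped. Its span lies opposite Tiam2 over 12089 bp. The libraries were stranded, but the setting used for strand when the reads were counted is not given in the sources used here, so whether reads of Esrra, Gabpa and Tfb1m were kept apart from those of the genes opposite is not known. On the strand of Ppargc1a itself lie Gm42614, Gm42615 and Gm43605, annotated spans with 9, 11 and 14 counts over all samples.

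**Figure D2:**
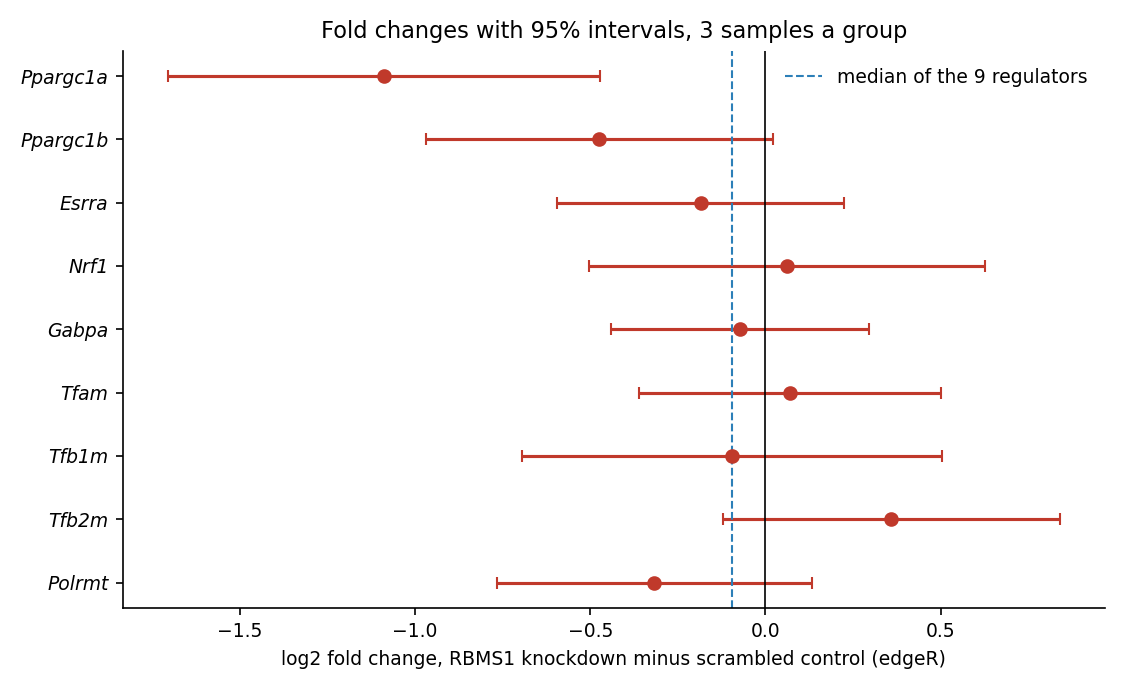
Points show the log2 fold change of each regulator (horizontal axis, RBMS1 knockdown minus scrambled control, edgeR) with its 95% interval, and the dashed line marks the median of the 9, -0.096. The interval of Ppargc1a, -1.71 to -0.47, was wholly below 0, and those of the other 8 genes included 0.

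Scaling moved the fold changes of the 9 regulators together. With library sizes alone the log2 fold changes of Esrra, Gabpa, Tfb1m and Polrmt were above 0, because all tested genes shifted upwards by 0.37. Relative to the median of all genes, Ppargc1a stayed between -1.27 and -0.90 over the 19 fits and Ppargc1b between -0.61 and -0.27. On the same relative scale Polrmt ranged from -0.44 to -0.19 and Tfb2m from 0.11 to 0.49, while Nrf1 ranged from -0.18 to 0.19 and took both signs.

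**Figure D3:**
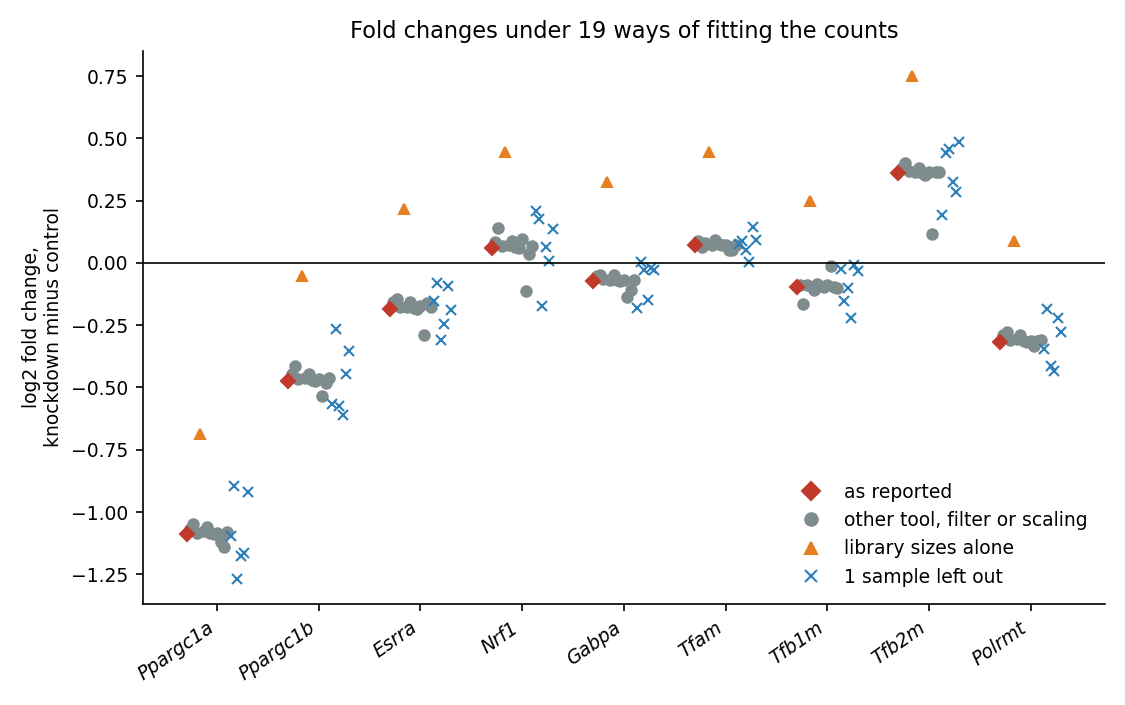
For each regulator the log2 fold change (vertical axis) is drawn under 19 ways of fitting the counts, with the reported value, other tools, filters and scalings, library sizes alone, and fits that leave out 1 sample. The values of Ppargc1a lay between -1.27 and -0.69, below those of every other gene, and library sizes alone gave the highest value of each gene.

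Levels per kilobase put the regulators in order. With CPM divided by the length of all exons joined, Gabpa had the highest control level, 12.6 ± 1.81 CPM per kb (SD, n = 3), followed by Ppargc1b at 9.07 ± 2.24, Tfb2m at 8.96 ± 1.89 and Esrra at 8.53 ± 1.42. Then came Polrmt at 5.77 ± 0.981, Tfam at 3.35 ± 0.105, Ppargc1a at 2.69 ± 0.728, Tfb1m at 1.95 ± 0.172 and Nrf1 at 1.64 ± 0.482. The ranges over samples were apart between Esrra and Polrmt and between Polrmt and Tfam, and every other pair of neighbours overlapped. In the knockdown samples Ppargc1a moved from 7th to 9th place, at 1.26 ± 0.260 CPM per kb. The order depends on the length used, since with the longest transcript in its place Esrra came first at 15.04 ± 2.51 and Ppargc1a last at 2.75 ± 0.742 in the controls. PGC-1alpha mRNA was thus less abundant per kilobase than PGC-1beta mRNA in these cells by either length, 2.75 against 9.90 CPM per kb by the longest transcript.

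Known binding motifs of these factors were searched for near the starts of the same genes. Promoters of 300 bases, 250 before the start and 50 from it, were taken from RefSeq (GRCm38.p6) for 8 of the 9 genes. Ppargc1b was left out of the search, so its promoter is not described. The NRF-1 core GCGCANGCG, the ETS motif CCGGAAG bound by GABP, the ERR motif TNAAGGTCA and the cAMP response element TGACGTCA were searched on both strands. Only full-length matches were taken, with N as any base, so shorter or inexact sites were not counted. The NRF-1 core was found in Esrra, Polrmt and Tfb2m, beside 6.25% of 32851 promoters and 16.8% of the promoters of 8422 tested genes. The ETS motif was found in Gabpa, Polrmt and Tfam, beside 8.86% of all promoters and 21.6% of those of tested genes. The ERR motif (1.28% of all promoters) and the cAMP response element (1.79%) were not among the letters of any of the 8.

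The matched windows are printed 5′ to 3′ along the gene's own strand, with the motif in capitals, since they are the places where the motif of GABP or NRF-1 lies in the promoter of a regulator, Gabpa itself included. They are Tfam chr10:71238074-71238103, Polrmt chr10:79746607-79746636 and chr10:79746565-79746594, Gabpa chr16:84835019-84835048, Tfb2m chr1:179546246-179546275 and Esrra chr19:6921931-6921960, all on the minus strand but Gabpa.
Tfam, ETS: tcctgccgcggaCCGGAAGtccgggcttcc
Polrmt, ETS: accctaagagcgCTTCCGGcagtcgcagaa
Gabpa, ETS: ggagggtaagtgCTTCCGGgtccctcagct
Polrmt, NRF-1: gcaggcggCGCGTGCGCGTGCGCactgcgg
Tfb2m, NRF-1: gctaggtcgttCGCATGCGCcattcgtaat
Esrra, NRF-1: cacaggaggccGCGCACGCGtgtgtatcga

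Counted from 1 at the start, with the base before it as -1, the ETS match of Tfam began at -47, that of Polrmt at -43 and that of Gabpa at -93. The NRF-1 match of Esrra began at -141 and that of Tfb2m at 13, and Polrmt held 2 overlapping matches from -5 to 10. Only Polrmt among these 8 held both motifs. The log2 fold changes of the genes with a match did not go one way, since among the 3 with the NRF-1 core Polrmt and Esrra were below 0 and Tfb2m above it. Over all tested genes with a matched promoter, the median log2 fold change was 0.0085 for the 1414 with the NRF-1 core, with 3 called higher and 5 lower, and 0.014 for the genes without it (0.566% called with it and 1.27% without). The 1818 with the ETS motif had a median of 0.0073 with 0 called higher and 7 lower, beside 0.015 without it (0.385% and 1.36% called). The 69 with the ERR motif had a median of -0.060, with 56.5% below 0 and 1.45% called, beside 0.013, 48.3% and 1.15% without it. The 317 with the cAMP response element had a median of 0.027, beside 0.013 without it, and 0.631% and 1.17% were called.

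The other genes of the pathway were grouped in 8 lists, and of their 106 tested genes edgeR called 2 (1.89%, beside 1.22% of all tested genes), Cox4i1 and mt-Co2, both lower. Counts of genes whose groups were apart are read against 9.55% of all tested genes for lower and 8.96% for higher. Of 17 partners and nuclear receptors of the PGC-1 family 12 were tested and 0 were called by either edgeR or DESeq2. Pparg and Rxra, the heterodimer that drives adipocyte genes, had log2 fold changes of -0.31 and 0.069, and Pprc1, the third member of the PGC-1 family, had 0.16. Nfe2l2, an antioxidant response factor, was the partner whose groups were apart, at 79.0, 82.7 and 82.6 CPM against 75.6, 75.2 and 60.4 (log2 fold change -0.21, edgeR adjusted p = 0.620). Esrrb had 0 counts in all samples, and Esrrg, Ppara, Thrb and Perm1 were too low to be tested.

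Of 15 enzymes and signals that act on PGC-1alpha 13 were tested and 0 were called by either tool. Without RBMS1 knockdown replicate 1 edgeR called 2 of the 13, both lower, beside 5.94% of all tested genes. These were Prkaca (edgeR adjusted p = 0.0183) and Lpin1 (0.0474), at log2 fold changes of -0.59 and -0.32 with all samples. Without any other single sample edgeR called 0 of the 13. Their median log2 fold change was -0.15, between -0.13 and -0.0084 with 1 sample left out, nearest to 0 without RBMS1 knockdown replicate 3, and -0.062 with chromosome medians removed. Creb1, a factor that activates Ppargc1a in response to cAMP, was above all controls in the 3 knockdown samples, at 51.5, 41.7 and 42.8 CPM against 34.4, 31.2 and 39.5 (log2 fold change 0.37, edgeR adjusted p = 0.415). Kat2a, the acetyltransferase GCN5, was below all controls (log2 fold change -0.34), and so was the kinase gene Mapk14 (-0.30). Of 9 corepressors 8 were tested, 0 were called by either tool and no gene had its groups apart. Nrip1, the corepressor RIP140 of fat cells, was at a log2 fold change of 0.11.

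Of the 8 other mtDNA transcription factors 0 were called by either tool, and the groups were apart for Mterf1a, at 1.76, 2.48 and 1.03 CPM in the controls and 4.02, 3.73 and 3.66 CPM in the knockdown samples (log2 fold change 1.21 ± 0.44 SE, edgeR adjusted p = 0.298). In these 3 controls 1 count equalled 0.160, 0.495 and 0.172 CPM, so the control values of Mterf1a rest on few counts. Mterf1a and its near copy Mterf1b, related to the termination factor of mtDNA transcription, may share reads. Mterf2, of the same protein family, was lower in every knockdown sample, at 6.74, 5.60 and 5.64 CPM against 8.15, 7.92 and 14.4 (log2 fold change -0.78 ± 0.30 SE, edgeR adjusted p = 0.331). The 16 genes of mtDNA replication and maintenance held 0 calls by either tool and a median of -0.063. With 1 sample left out that median ran from -0.068 to 0.027, the latter without RBMS1 knockdown replicate 2. Lig3, the mtDNA ligase gene, was the 1 gene of the 16 with its groups apart, beside 18.5% of all tested genes, at a log2 fold change of 0.092.

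Among 18 genes of mitochondrial RNA processing edgeR called 0 and DESeq2 called 1. Hsd17b10, a subunit of the enzyme that cuts the 5′ end of mitochondrial tRNAs, was at 60.6, 78.7 and 61.8 CPM in the control samples and 46.2, 30.7 and 33.3 CPM in the knockdown samples. It was lower in every knockdown sample, by a log2 fold change of -0.87 ± 0.20 (SE), and it was just outside the threshold with edgeR (adjusted p = 0.111) and inside it with DESeq2 (adjusted p = 0.0225). Over its 19 fits the adjusted p ran from 0.0183, without RBMS1 knockdown replicate 1, to 0.389. Supv3l1, the mitochondrial RNA helicase gene, was above all controls with a log2 fold change of 0.24.

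Of 20 target genes of NRF-1, GABP and ERRalpha 18 were tested, 16 of them were below 0 and the median log2 fold change was -0.30, beside 0.0044 for all tested genes. Leaving out RBMS1 knockdown replicate 1 gave -0.51, and leaving out any other single sample gave -0.32 to -0.21. That library lay near the controls, with a median deviation over the list of 0.066 on the log2 scale, beside 0.087 to 0.25 in the controls and -0.35 and -0.20 in knockdown replicates 2 and 3. Cox4i1, a core subunit of cytochrome c oxidase, fell by 0.81 on the log2 scale (edgeR, adjusted p = 0.0842), from 320, 417 and 345 CPM to 233, 189 and 195 CPM. It was called in 9 of 19 fits (adjusted p 0.00227 to 0.440) and not with chromosome medians (0.414) or the GC and length trend (0.175) removed, with the replicate block (0.214), with library sizes alone (0.440), with the earlier edgeR estimates (0.107), or without any 1 of the controls or of knockdown replicates 2 and 3 (0.150 to 0.339). The fold change itself was -0.42 with chromosome medians removed, -0.40 with library sizes alone and -0.63 with the GC and length trend removed. It was -0.81 with the earlier edgeR estimates, and -0.69 to -0.90 with the replicate block or 1 sample left out. The groups were apart and lower for 6 of the 18, Cox4i1 included, beside 9.55% of all tested genes. Uqcrh, a subunit of complex III, was at a log2 fold change of -0.65, the angiogenic factor Vegfa at -0.59 and Etfdh, which passes electrons from fatty acid oxidation to ubiquinone, at -0.50. None of these was called with all samples. Without RBMS1 knockdown replicate 1 edgeR called 5 of the 18, Vegfa among them and all lower, beside 5.94% of all tested genes. Without any other single sample it called 0. With library sizes alone the list's median was 0.084, under a shift of 0.37 for all genes.

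The 13 mtDNA-encoded mRNAs are what POLRMT transcribes, and all 13 had log2 fold changes below 0, with a median of -0.68. Their sum was 54224, 60290.5 and 50876 CPM in the control samples and 32798, 41199 and 35961 CPM in the knockdown samples. Every knockdown sample was below every control, with means of 55130 ± 4772 and 36653 ± 4243 CPM (SD, n = 3 each), a ratio of 1.504 and p = 0.1 by a two-sided exact permutation test, the smallest that 3 against 3 can give. The mouse nuclear genome holds near-identical copies of parts of mtDNA, and how the counting divided such reads is not given in the sources used here. As a share of all counts, without TMM factors, the same sum was 5.67%, 3.88% and 4.96% in the controls and 3.71%, 4.52% and 4.43% in the knockdown samples, and the groups then overlapped through scrambled control replicate 2, the library with 43.0% ribosomal RNA. Of the 13, 9 were apart and lower, beside 9.55% of all tested genes. After mt-Co2 the largest edgeR log2 fold changes among them were those of mt-Nd5 (-0.95, adjusted p = 0.179, 0.000183 with DESeq2, 0.000183 to 0.486 over 19 fits) and mt-Atp6 (-0.90, adjusted p = 0.187, 0.000733 with DESeq2, 0.000733 to 0.511 over 19 fits), both called by DESeq2 alone. The gene that edgeR called was mt-Co2, a cytochrome c oxidase subunit, at a log2 fold change of -2.06 (adjusted p = 0.0987, 0.0247 to 0.302 over 19 fits), and DESeq2 called 7, all lower, beside 3.20% of all genes. In CPM mt-Co2 was at 1036, 1943 and 433 in the controls, a wide spread, and at 329, 267 and 222 in the knockdown samples, and its log2 fold change was -1.43 without scrambled control replicate 2. It was called in 9 of the 19 fits. The call was lost with edgeR when 1 of 4 samples was left out, namely control replicates 1 and 2 and knockdown replicates 2 and 3 (adjusted p 0.149 to 0.302), and in 6 other fits (adjusted p 0.104 to 0.174) in which the log2 fold change stayed between -2.06 and -1.82. Beside these mRNAs, the genes of the machinery that transcribes them had log2 fold changes of 0.071 (Tfam), -0.32 (Polrmt), 0.36 (Tfb2m) and -0.096 (Tfb1m), each with an interval that included 0.

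**Figure D4:**
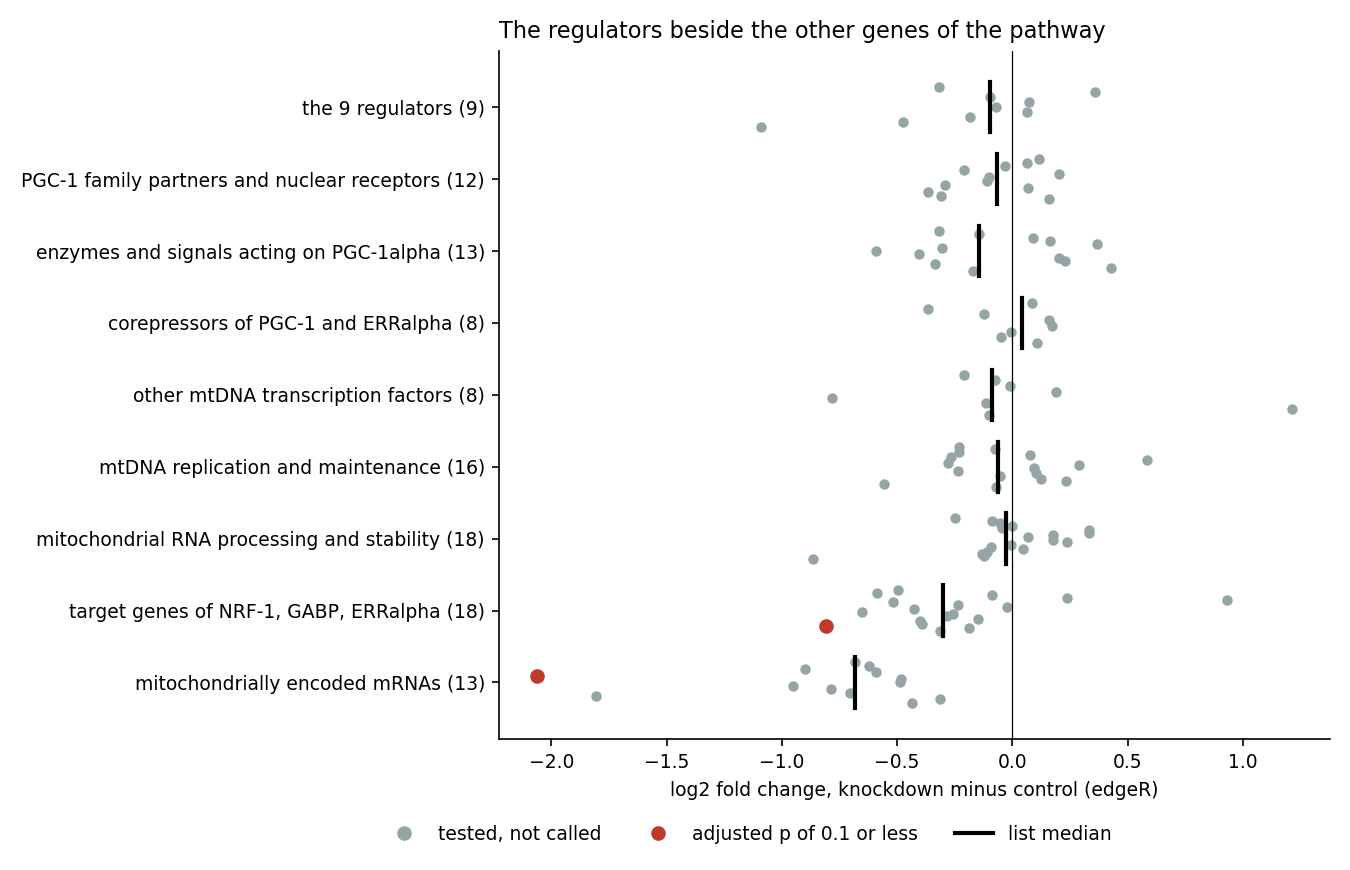
Each point is the log2 fold change (horizontal axis, edgeR) of a tested gene of the 9 regulators and of 8 pathway lists, with the number of tested genes in brackets, called genes in red and the list median as a bar. The medians of the regulators and of the first 6 lists lay between -0.15 and 0.039, that of the target list was -0.30 and that of the mtDNA-encoded mRNAs -0.68.

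The summed level of the 10 adipocyte markers was 22799 to 25698 CPM in the control samples and 12257 to 21561 CPM in the knockdown samples. Lpl, the lipoprotein lipase gene, was the most abundant of them, at 12245, 11929 and 14476 CPM against 10184, 5336 and 5581, and without it, a sum computed after seeing the data, the ranges of 10554 to 11956 CPM and 6920 to 11377 CPM overlapped. Of the 10 markers 3 were apart and lower and 1 apart and higher (9.55% and 8.96% of all tested genes). Log2 fold changes were below 0 for 9 of them, and the median of the 10 was -0.42. Of the 10, 0 were called by edgeR and 2 by DESeq2, 1 higher and 1 lower, beside 1.22% and 3.20% of all genes. Without RBMS1 knockdown replicate 1 edgeR called 5 of the 10, all lower, beside 5.94% of all tested genes, and without any other single sample 0. The median was -0.66 without that library, -0.25 without knockdown replicate 2 and -0.026 with library sizes alone, under a shift of 0.37 for all genes. Cd36, a fatty acid transporter gene, was the marker above 0, at 0.72, and the 1 that DESeq2 called higher. The 10 fibroblast markers summed to 11255 to 13488 CPM in the controls and 7621 to 15590 CPM in the knockdown samples, with Cd34 near 0. Of the 9 tested, 2 were apart and lower, 0 were called by edgeR and 1, the receptor gene Pdgfra, by DESeq2 (adjusted p = 0.0277, 0.155 with edgeR, 0.0277 to 0.430 over 19 fits). Brown and beige markers summed to 10.9 to 14.8 CPM and 7.70 to 10.9 CPM, with Ucp1 at 0. Macrophage markers summed to at most 3.26 CPM and endothelial markers to at most 1.98 CPM, and Adgre1, Ptprc and Kdr were at 0. The part of the adipocyte markers in the values of Ppargc1a and of the mtDNA-encoded mRNAs was not tested, and fewer adipocytes in a culture cannot be told apart from less RNA per adipocyte in such bulk samples.

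For each regulator the genes with the closest pattern over the 6 samples were sought among 9698 genes of at least 5 CPM, by the root mean square difference of centred log2 CPM. The closest to Ppargc1a were Rab11fip1 at 0.17 and Irx3 at 0.18, which had log2 fold changes of -1.22 and -0.86. Ppargc1b was nearest to Txnl4b (0.069) and Cpeb3 (0.076), and Polrmt to Aifm1 (0.053) and Cog6 (0.062). Tfam was nearest to Pgap1 (0.025) and Mtmr4 (0.030), and Gabpa to Nsun3 (0.031) and Vps45 (0.034). Esrra was nearest to Lamc1 and Tesk1, Nrf1 to 1700030K09Rik and Sgsm2, Tfb1m to Mtor and Cstf1, and Tfb2m to Zfp800 and Ccdc186. None of the 9 had another of the 9 as either of its nearest genes. These are descriptions over 6 samples that share their libraries.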

How the data were processed

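Cells were sequenced as ribosomal RNA-depleted, stranded total RNA libraries. Per the labels, the authors used Trim Galore 0.6.7 for trimming, STAR 2.7.10a for alignment to GRCm38 and Salmon 1.9.0 for expected counts per gene, and deposited these estimated counts without normalization. The annotation release and strand setting are not given in the sources used here. Columns were matched to samples by name.

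After rounding, edgeR 4.0.16 under R 4.3.3 was run (filterByExpr filter, TMM factors, quasi-likelihood test with its current estimates) on all 11440 genes passing the filter, with Benjamini-Hochberg adjustment and no covariate. The script was tested on simulated data. Alternatives were DESeq2 1.42.0, limma-voom (limma 3.58.1), other scalings and filters, unrounded counts, a replicate block, chromosome medians or GC and length trends removed, and each sample left out. The earlier quasi-likelihood estimates were added after seeing the data. Ratios, exact permutation tests (scipy) and motif searches were computed in Python. Members and lists were chosen with earlier results of these data known. The text names the 9 members, Rbms1, each list's called genes and up to 3 with the largest fold change whose groups were apart, and the 2 nearest genes per member, and further list genes (such as Pparg, Rxra, Pprc1, Nrip1, Lpl, Pdgfra and Cd36) were named after their values were seen. Gene positions and lengths came from GENCODE vM21. Depth was 3142695 to 11073098 counts a sample.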

Additional observations from a re-analysis of the deposited data

How the results depend on the processing

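By edgeR 140 of 11440 genes were called (74.3% lower), 53 of them at an adjusted p under 0.05. The count was 430 with DESeq2, 268 with no filter on low counts, 39 with a replicate block, 70 with chromosome medians removed and 12 to 696 with 1 sample left out, the 12 without scrambled control replicate 2 and the 696 without RBMS1 knockdown replicate 1. With library sizes alone 33.3% of the calls were lower, and with a replicate block 84.6%. The count of regulators called was 1 with DESeq2 and 0 to 1 with 1 sample left out, and 0 in every other fit. The 2 calls among pathway list genes became 9 with DESeq2, 0 with a replicate block, 0 with chromosome medians removed and 0 to 10 with 1 sample left out, the 10 without RBMS1 knockdown replicate 1. The median log2 fold change of the 9 regulators was 0.25 with library sizes alone and -0.22 to -0.020 with 1 sample left out. Reversed values were those of Esrra (0.22), Gabpa (0.33), Tfb1m (0.25) and Polrmt (0.088) with library sizes alone, of Nrf1 with chromosome medians removed (-0.11) and without scrambled control replicate 3 (-0.17, with 1 sample left out -0.17 to 0.21), and of Gabpa without scrambled control replicate 2 (0.0030, with 1 sample left out -0.18 to 0.0030). The first 4 reverse by construction, all genes being shifted by 0.37, as does Nrf1 with the chromosome 6 median of 0.19 removed. The other 2 appeared when the lowest Nrf1 sample (11.2 CPM) or the highest Gabpa sample (79.2 CPM) was left out, and their cause was not tested. Same-numbered samples of the groups did not deviate together (correlations of -0.15, 0.091 and -0.035), so the numbers were not taken as pairs, and the replicate block called none of the 9 regulators. With 13 to 48 counts of Tfb1m and 46 to 108 of Ppargc1a in the controls, depth limits what the low regulators can show.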
